A study of Mus musculus with 10 samples.

Results

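Regulatory T cells are CD4-positive lymphocytes that restrain other immune cells, and the transcription factor Foxp3 directs their programme. The levels of 10 genes of that programme were followed in T helper cell cultures: Foxp3 itself, Ikzf2, Ikzf4, Il2ra, Ctla4, Lrrc32, Nrp1, Gpr83, Izumo1r and Capg. They were chosen by name, and each was represented by the probe set that carried its symbol alone (if there were several, the brightest over the 10 arrays). Each of the 10 had exactly 1 such probe set, among 22180 genes measured. In T cells generally, TGF-beta favours Foxp3, IL-6 turns the same stimulus toward the Th17 fate, IL-2 sustains Foxp3-expressing cells through the receptor chain encoded by Il2ra, and IL-4 drives the Th2 fate. Activated conventional T cells also express Il2ra and Ctla4.

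The cells were CD4-positive lymphocytes from the spleens of wild-type female BALB/c mice aged 10 to 14 weeks. Cells of every group were stimulated through CD3 (antibody at 4 µg/ml) and through CD28 (antibody at 30 ng/ml), and the medium was renewed at 72 h. When the cells were harvested is not stated in the labels. Th0 cultures (n = 3) received nothing else, Th2 cultures (n = 3) also IL-4 (100 ng/ml), and Th17 cultures (n = 4) also IL-6 (20 ng/ml), TGF-beta (5 ng/ml) and IL-23 (10 ng/ml). Th2 and Th17 cultures, but not Th0, also received an antibody against interferon gamma (10 µg/ml), so each comparison with Th0 includes that antibody. The isolation kit selects CD4-positive cells, and no step that separates regulatory from conventional T cells is named in the sources used here. The replicates are labelled biological, but whether they came from separate mice is not given, so the p-values speak of the variation among these cultures, which may be technical.

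Values are log2 expression after RMA (robust multi-array average). A gene was called where limma's adjusted p (Benjamini-Hochberg, over all 22180 genes) was under 0.05. In whole cultures, fewer cells of a type and less RNA per cell cannot be told apart. T cell identity was present on each array, with Cd3e between 9.36 and 10.44 and Cd4 between 7.09 and 8.76. The B cell gene Ms4a1 (2.61 to 3.23), the macrophage receptor gene Csf1r (3.01 to 3.56) and the plasmacytoid dendritic cell gene Siglech (3.38 to 3.96) stayed near or below the array medians of 3.39 to 3.61. Other genes of those cell types were not all low. Ighm, which encodes the IgM heavy chain, was at 4.71 to 10.41, and Bst2, which is also induced in other cells by interferon, at 4.68 to 6.56. On Th17 replicate 1 the myeloid genes S100a8, S100a9 and Lyz2 were at 7.16, 6.52 and 5.43. As a mean, basophil and mast cell genes were highest on 3 arrays, but single genes differed. Cpa3 was also at 6.86 on Th0 replicate 3 and 6.20 on Th2 replicate 1, and Kit at 5.07 on Th17 replicate 1. Mcpt4 was at 8.19 on Th0 replicate 1 and at 4.15 or less elsewhere. The mean of 8 basophil and mast cell markers was 7.16 on Th0 replicate 1, 5.69 on Th17 replicate 2 and 5.84 on Th17 replicate 3, and 4.17 or less elsewhere (these 3 are called basophil-rich here). Th2 replicates 2 and 3 and Th17 replicate 4 stood apart on the first principal component (38.8, 55.8 and 37.5, against -0.96 or less), and their cell cycle means (11 of 12 listed genes measured) of 6.58, 6.43 and 6.76 were low, as was the 6.51 of Th17 replicate 2. Their means of 10 T cell identity genes were also the lowest, at 8.71, 8.72 and 8.68, against 9.05 or more on the other 7 arrays.

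None of the 10 genes was called in any comparison of groups. In Th17 against Th0 limma called 0 of the 10, while 0.104% of all genes were called. An unadjusted p under 0.05 was reached by 4 of the 10, where 5.17% of all genes reached it: Ikzf2, Lrrc32 and Izumo1r on the lower side (2.67% of all genes) and Capg on the higher (2.50%). In Th2 against Th0, where 0.00% of all genes were called, it was reached by 2 (Foxp3 and Ikzf2, both lower), against 6.34% of all genes, or 2.98% on the lower side. None of the 10 separated Th2 from Th0 arrays without overlap, where 8.43% of all genes did. In Th17 against Th2, where 0.0766% were called, it was reached by 3 (Ikzf4 and Capg higher, Izumo1r lower), against 6.25% of all genes, 3.18% higher and 3.07% lower. Differences below 0 were found for 6 of the 10 in Th17 against Th0 (53.2% of all genes), 7 in Th2 against Th0 (52.3%) and 3 in Th17 against Th2 (51.6%). The median difference of the 10 was -0.35 in Th17 against Th0 (-0.02 over all genes), -0.48 in Th2 against Th0 (-0.01 over all genes) and 0.10 in Th17 against Th2 (-0.01 over all genes). Within groups the residual SDs of the 10 ran from 0.27 for Capg to 0.90 for Gpr83, against a median of 0.26 over all genes. Capg was thus close to that median. Of the 22180 genes only 6250 had a mean of at least 5, and the median was not matched for expression level.

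**Figure D1:**
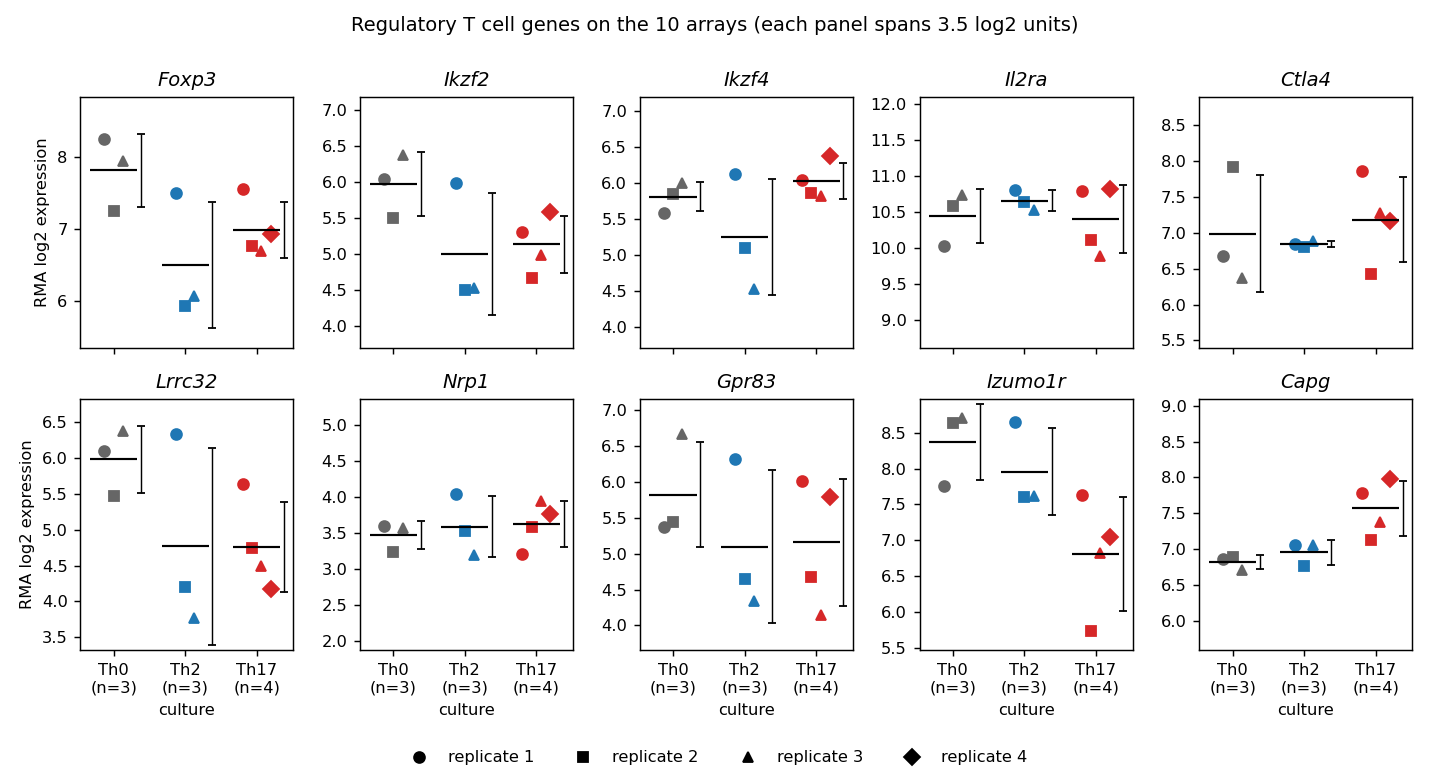
RMA log2 expression of the 10 genes on each array, by culture (grey Th0, n = 3; blue Th2, n = 3; red Th17, n = 4), with symbol shape giving the replicate, a line at the group mean and a bar for ± 1 SD. Foxp3, Ikzf2, Ikzf4, Lrrc32, Gpr83 and Izumo1r were much lower on Th2 replicates 2 and 3 than on Th2 replicate 1. Capg was higher on the 4 Th17 arrays than on all others.

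Foxp3 (probe set 17532811, chromosome X) encodes the forkhead transcription factor that defines regulatory T cells. It was at 8.25, 7.26 and 7.94 on Th0 replicates 1 to 3. It was at 7.51, 5.93 and 6.06 on Th2 replicates 1 to 3. It was at 7.55, 6.77, 6.70 and 6.92 on Th17 replicates 1 to 4. The 2 lowest arrays were thus Th2 replicates 2 and 3, the third Th2 array lay within the Th0 range, and the groups overlapped in every comparison.

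Mean Foxp3 was highest in Th0 cultures at 7.81 ± 0.51 (SD, n = 3), then in Th17 cultures at 6.99 ± 0.39 (SD, n = 4), and lowest in Th2 cultures at 6.50 ± 0.87 (SD, n = 3). No neighbours in this order differed past the threshold. Th2 differed from Th0 by -1.31 ± 0.41 (SE), with a 95% interval from -2.21 to -0.42 (limma, adjusted p = 0.767). Th17 differed from Th0 by -0.83 ± 0.38 (SE, interval -1.67 to 0.01, limma adjusted p = 0.971), and from Th2 by 0.48 ± 0.38 (SE, interval -0.36 to 1.32, limma adjusted p = 0.937). The F-test of limma over the 3 groups gave an adjusted p of 0.758. Of all genes 0.0631% passed that test at an adjusted p under 0.05, and none of the 10 did.

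The sizes of these Foxp3 differences depended on single arrays or on sets of 3 arrays. Against Th0 they stayed below 0 in all 23 settings, from -1.11 to -0.36 for Th17 and from -1.82 to -0.31 for Th2. Without Th2 replicate 1 the difference of Th2 from Th0 was -1.82 ± 0.31 (SE) and was called (limma, adjusted p = 0.0257), and Ikzf2 (-1.47, adjusted p = 0.0378) and Lrrc32 (-1.99, adjusted p = 0.0366) were called with it, among 431 genes called in all. Without the 3 arrays apart on the first component, where Th2 replicate 1 stands alone, it was -0.31 ± 0.43 (SE), and the difference of Th17 from Th2 turned from 0.48 to -0.50. Without the 3 basophil-rich arrays the difference of Th17 from Th0 was -0.36 ± 0.54 (SE), and without Th0 replicate 1 alone it was -0.61 ± 0.43 (SE). Set against each array's mean of 10 T cell identity genes, Th2 differed from Th0 by -0.99 and Th17 by -0.65, on a scale where the median gene moved by 0.31 and 0.16.

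**Figure D2:**
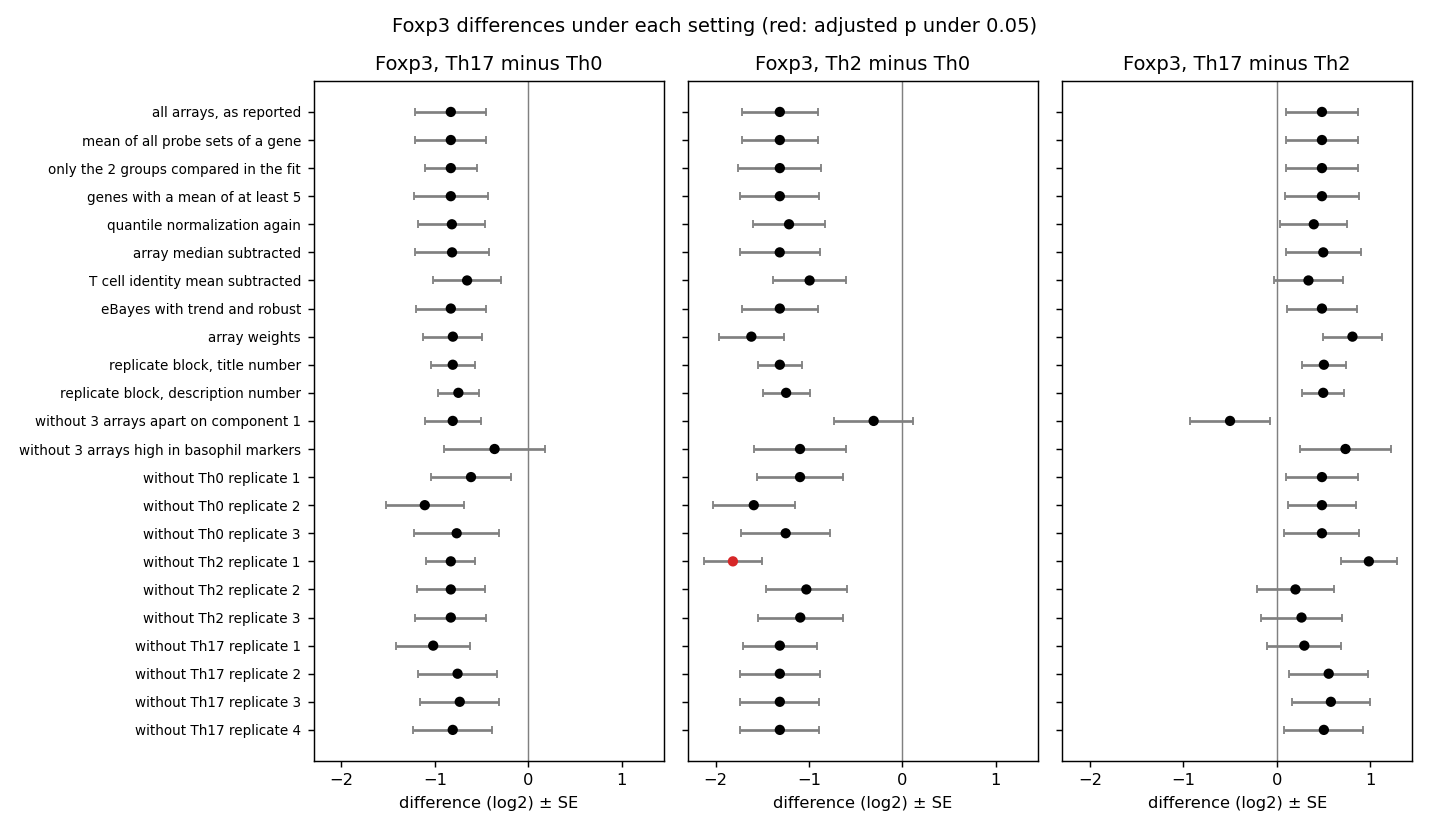
Foxp3 differences of group means (log2, with ± 1 SE) for the 3 comparisons, as reported and under each of the other settings, with red marking an adjusted p under 0.05. The only red point is Th2 against Th0 without Th2 replicate 1 (-1.82), and the value nearest 0 in that comparison is the one without the 3 arrays apart on the first component (-0.31).

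Windows of 250 bases before annotated transcript starts were taken from RefSeq (GRCm38.p6) for the 7 of the 10 genes that matched, 8 windows in all. Ikzf2, Ikzf4 and Lrrc32 were not matched. The 3 windows that lie wholly before the gene, those of Foxp3, Il2ra and Ctla4, are shown. A link of these sequences to the expression values was not tested. Both strands were searched for 8 motifs. The letters were TGTTTAC for the forkhead motif, TGTGGT for the motif of RUNX factors and TTCNNNGAA for that of STAT factors. They were TGGAAA for the motif of NFAT factors, TGANTCA for that of the AP-1 dimer and AGATAA for that of the GATA family. They were TGACG for the half-site of the cyclic AMP response element (CRE), and TATAAA for the TATA box. Capitals mark their matches, and a match is a description of letters only. The windows, all on the plus strand, are chrX:7579426-7579675 for Foxp3, chr2:11642542-11642791 for Il2ra and chr1:60908775-60909024 for Ctla4.
Foxp3: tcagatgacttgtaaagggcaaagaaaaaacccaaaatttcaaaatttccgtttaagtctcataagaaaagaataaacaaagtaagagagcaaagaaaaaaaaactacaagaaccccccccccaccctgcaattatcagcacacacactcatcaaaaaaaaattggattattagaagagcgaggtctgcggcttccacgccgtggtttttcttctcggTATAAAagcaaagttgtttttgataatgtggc
Il2ra: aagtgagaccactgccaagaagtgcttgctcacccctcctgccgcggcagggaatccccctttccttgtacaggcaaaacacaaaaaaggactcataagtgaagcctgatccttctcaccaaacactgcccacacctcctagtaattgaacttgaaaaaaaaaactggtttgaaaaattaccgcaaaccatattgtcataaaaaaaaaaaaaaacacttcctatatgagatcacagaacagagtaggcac
Ctla4: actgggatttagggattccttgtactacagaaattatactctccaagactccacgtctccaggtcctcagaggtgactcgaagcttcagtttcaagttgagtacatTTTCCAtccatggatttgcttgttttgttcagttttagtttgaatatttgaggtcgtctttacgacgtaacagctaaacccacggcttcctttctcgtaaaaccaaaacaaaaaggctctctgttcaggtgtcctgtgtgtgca
The Foxp3 window held the TATA letters at -32 to -27 from the start, as did 12.4% of all 32851 windows with those letters anywhere. The Ctla4 window held the NFAT letters on the minus strand at -144 to -139, as 18.6% of all windows did somewhere. The Il2ra window held none of the 8 motifs. RefSeq lists another Foxp3 start inside the gene, and 30 bases before it, chrX:7580335-7580364 on the plus strand, are given because the NFAT letters (minus strand) and the STAT letters (in 7.02% of all windows) overlap there.
Foxp3 inner start: agctctgtTTTCCAAGAAcgggcattagtt
The inner window also held the GATA letters (9.99% of all windows) at -47 to -42. The window of Izumo1r held NFAT and RUNX letters (14.0% of all windows have the latter) and that of Gpr83 a CRE half-site (17.8%). No forkhead (3.17%) or AP-1 (6.75%) letters were in any of the 8 windows.

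Ikzf2 (Helios, probe set 17223985) and Ikzf4 (Eos, probe set 17246268) encode zinc finger factors of the Ikaros family that act with Foxp3 in regulatory T cells. Ikzf2 was at 6.04, 5.50 and 6.38 on the Th0 arrays, at 5.98, 4.49 and 4.52 on the Th2 arrays, and at 5.30, 4.67, 4.98 and 5.58 on the Th17 arrays. Like Foxp3 it was lowest on Th2 replicates 2 and 3, and its Th17 and Th0 arrays overlapped only through Th17 replicate 4. The difference from Th0 was -0.84 ± 0.37 (SE) in Th17 and -0.98 ± 0.39 (SE) in Th2 cultures (limma, adjusted p = 0.945 and 0.767), and Th17 and Th2 differed by 0.13 (interval -0.68 to 0.95). Without the 3 arrays apart on the first component, the difference of Th2 from Th0 was 0.0072 and that of Th17 from Th2 was -0.9998. Without Th2 replicate 1 the former was -1.47.

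Ikzf4 was at 5.59, 5.85 and 5.99 on the Th0 arrays, at 6.12, 5.10 and 4.53 on the Th2 arrays, and at 6.04, 5.87, 5.82 and 6.37 on the Th17 arrays. It too was lowest on Th2 replicates 2 and 3, but its 4 Th17 arrays lay within or above the Th0 range. The Th17 mean was 0.21 ± 0.31 above that of Th0 (SE, limma adjusted p = 0.999) and 0.77 ± 0.31 above that of Th2 (SE, limma adjusted p = 0.726). Without Th2 replicate 1 the latter was 1.21 ± 0.22 (SE) and was called (limma, adjusted p = 0.0338), and without the 3 arrays apart on the first component it turned to -0.21.

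Il2ra (probe set 17366992) encodes CD25, the alpha chain that gives the IL-2 receptor its high affinity. It was at 10.02, 10.57 and 10.73 on the Th0 arrays, at 10.80, 10.64 and 10.52 on the Th2 arrays, and at 10.79, 10.11, 9.88 and 10.82 on the Th17 arrays. The groups overlapped throughout. The Th17 mean differed from that of Th0 by -0.04 (interval -0.61 to 0.52) and Th2 from Th0 by 0.21 (interval -0.39 to 0.82). The 3 lowest arrays, Th17 replicate 3, Th0 replicate 1 and Th17 replicate 2, were the 3 with the highest basophil and mast cell means, and without them Th17 differed from Th0 by 0.15. The part of those cells in the Il2ra values was not tested.

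Ctla4 (probe set 17213478) encodes an inhibitory receptor that competes with CD28 for its ligands. It was at 6.67, 7.91 and 6.37 on the Th0 arrays, at 6.84, 6.80 and 6.89 on the Th2 arrays, and at 7.86, 6.43, 7.27 and 7.17 on the Th17 arrays. Th2 arrays were nearly alike (SD 0.04), whereas Th0 arrays spread widely (SD 0.81) and Th17 arrays overlapped them. Th17 differed from Th0 by 0.19 (interval -0.63 to 1.02), a sign that turned without Th0 replicate 3 (-0.11) or Th17 replicate 1 (-0.03). The highest arrays, Th0 replicate 2 and Th17 replicate 1, were also the highest in Cd8a (5.63 and 4.88), which marks cytotoxic T cells. They were highest too in the B cell gene Ighm (9.68 and 10.41), and in Cd8b1, Cd79a and Cd79b. Other genes of those cell types were highest elsewhere: Nkg7, Eomes and Blk on Th0 replicate 1, Klrd1 and Klrk1 on Th17 replicate 3, Ms4a1 and Pax5 on Th2 replicate 3. The B cell mean was 4.53 and 4.59 on the arrays highest in Ctla4, above all others. The CD8 and NK cell mean was 5.07 and 4.89 there, and highest on Th17 replicate 3 (5.24). The part of such cells in the Ctla4 values was not tested.

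Lrrc32 (GARP, probe set 17480485) encodes a surface protein that holds latent TGF-beta on activated regulatory T cells and on platelets. It was at 6.10, 5.46 and 6.37 on the Th0 arrays, at 6.33, 4.20 and 3.77 on the Th2 arrays, and at 5.64, 4.74, 4.49 and 4.17 on the Th17 arrays. It spanned 2.59 log2 units or 6.04-fold from Th2 replicate 3 to Th0 replicate 3, a range wider than that of each other gene of the 10 except Izumo1r (2.97, or 7.83-fold), and Th17 replicate 1 alone of its group reached the Th0 range. Th17 differed from Th0 by -1.22 ± 0.55 (SE) and Th2 by -1.21 ± 0.58 (SE) (limma, adjusted p = 0.962 and 0.795). Platelet markers (5 of 6 listed genes measured) had means of 5.11 to 6.78 on the Th0 arrays, of 5.93, 3.85 and 3.90 on Th2 replicates 1 to 3 and of 5.77, 5.05, 5.13 and 3.57 on Th17 replicates 1 to 4. The 3 arrays lowest in Lrrc32 were the 3 with the lowest platelet means and the same 3 that stood apart on the first component. Pf4, Ppbp and Itgb3 were each lowest on those 3 arrays. Itga2b (3.84 to 4.67) and Gp9 (4.03 to 5.34) varied less. Gp9 did not follow the mean, at 4.52 on Th2 replicate 2 and 4.28 on Th0 replicate 3. The part of platelets was not tested. Without those 3 arrays Th17 differed from Th0 by -1.02 ± 0.33 (SE, limma adjusted p = 0.469), but the difference of Th2 from Th0 turned to 0.35 ± 0.46 (SE) and that of Th17 from Th2 moved from -0.01 to -1.37.

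Nrp1 (probe set 17506991), a coreceptor for semaphorins that marks thymus-derived regulatory T cells, was at 3.19 to 4.04 on all 10 arrays. That is close to the array medians, so its level is near the weakest the arrays resolve. Its group means lay within 0.16 of each other. They were 3.47 ± 0.20 (SD, n = 3) for Th0, 3.58 ± 0.43 (SD, n = 3) for Th2 and 3.62 ± 0.32 (SD, n = 4) for Th17 cultures. The interval of Th17 against Th0 ran from -0.35 to 0.66.

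Gpr83 (probe set 17514789), a G protein-coupled receptor, and Izumo1r (probe set 17524092), the folate receptor 4 of regulatory T cells and the egg's sperm receptor, are neighbours on chromosome 9 with 15.0 kb between them (GRCm38.p6). Gpr83 was at 5.37, 5.43 and 6.66 on the Th0 arrays, at 6.31, 4.64 and 4.33 on the Th2 arrays, and at 6.01, 4.67, 4.15 and 5.79 on the Th17 arrays. Each group thus held 1 or 2 arrays far above its others, and the groups overlapped. The mean differed from that of Th0 by -0.67 in Th17 (interval -1.90 to 0.57) and by -0.72 in Th2 cultures (interval -2.05 to 0.60). The Th2 value ran from -1.33 without Th2 replicate 1 to 0.49 without the 3 arrays apart on the first component, and was -0.30 without Th0 replicate 3 and -0.34 without Th2 replicate 3. The Th17 value was -0.25 without Th0 replicate 3, -0.33 without Th17 replicate 3 and -0.15 without the 3 basophil-rich arrays.

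Izumo1r was at 7.76, 8.63 and 8.71 on the Th0 arrays, at 8.65, 7.60 and 7.62 on the Th2 arrays, and at 7.63, 5.74, 6.82 and 7.05 on the Th17 arrays. All 4 Th17 arrays lay below all 3 Th0 arrays, and 4.35% of all genes separated in that direction. Th17 differed from Th0 by -1.56 ± 0.43 (SE, interval -2.49 to -0.62), which is 2.94-fold lower. That difference was not called (limma, unadjusted p = 0.00378, adjusted p = 0.554). Th17 differed from Th2 by -1.15 ± 0.43 (SE, limma adjusted p = 0.676) with overlapping arrays, and Th2 from Th0 by -0.41 ± 0.45 (SE), which turned to 0.29 without the 3 arrays apart. The difference of Th17 from Th0 kept its direction in all 23 settings, from -1.86 without Th0 replicate 1 to -1.20 without Th17 replicate 2, and was -1.64 without the 3 arrays apart on the first component and -1.33 without the 3 basophil-rich arrays.

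Capg (probe set 17459656) encodes an actin-capping protein found in regulatory T cells and in macrophages. It was at 6.87, 6.89 and 6.72 on the Th0 arrays, at 7.05, 6.76 and 7.06 on the Th2 arrays, and at 7.79, 7.13, 7.38 and 7.98 on the Th17 arrays. All 4 Th17 arrays lay above the other 6, where 3.22% of all genes separated in that direction from Th0 and 2.60% from Th2. Th17 differed from Th0 by 0.75 ± 0.20 (SE, interval 0.30 to 1.19) or 1.68-fold, and from Th2 by 0.61 ± 0.20 (SE) or 1.53-fold (limma, unadjusted p = 0.00342 and 0.0112, adjusted p = 0.516 and 0.608). The myeloid marker mean was 4.04 on Th17 replicate 1 and 3.22 or less on each other array. Without Th17 replicate 1 the difference from Th0 was 0.67 ± 0.22 (SE), and Capg was highest on Th17 replicate 4, where the myeloid mean was 3.08. Without the 3 basophil-rich arrays the difference from Th0 was 1.08 ± 0.21 (SE). The part of myeloid cells or basophils in the Capg values was not tested.

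**Figure D3:**
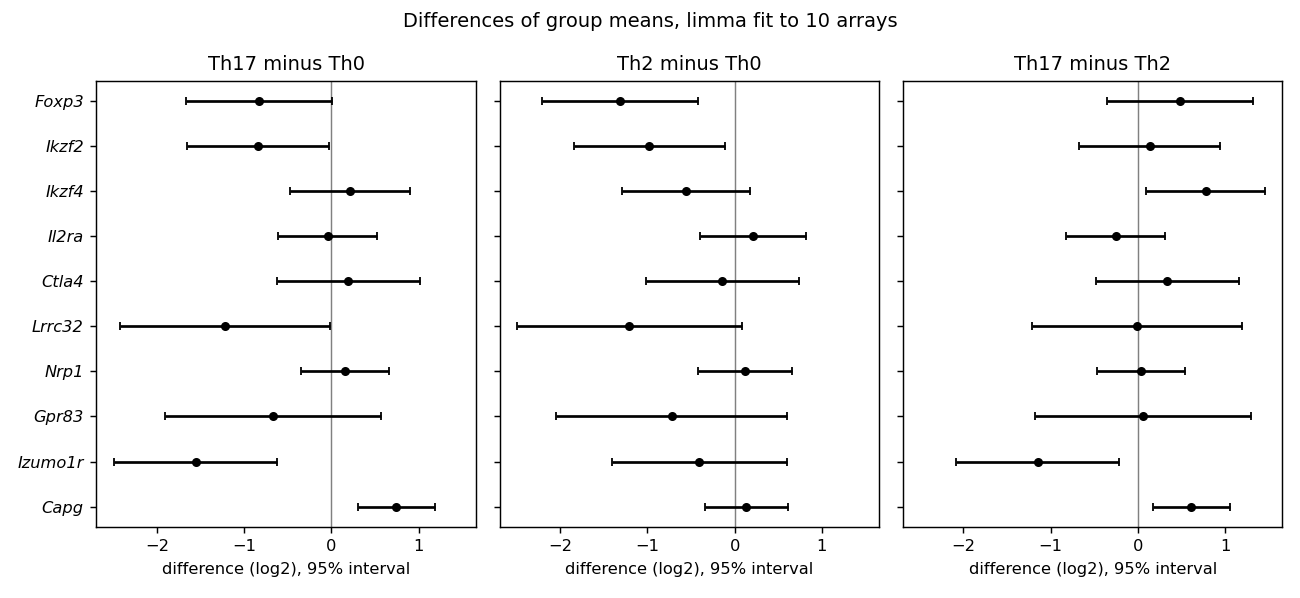
Differences of group means (log2) of the 10 genes with 95% intervals from the limma fit to 10 arrays, one panel for each comparison. Against Th0, Izumo1r (-1.56) and Capg (0.75) had the Th17 intervals farthest from 0 on either side, and the intervals are not adjusted for the number of genes.

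The other 9 genes differed in how far they shared the pattern of Foxp3 over the 10 arrays, which were normalized together. As a description, the Pearson correlation with Foxp3 was 0.903 for Lrrc32, 0.900 for Ikzf2 and 0.736 for Gpr83 (Spearman 0.842, 0.891 and 0.745).  Among all 22180 genes, with Foxp3 itself as rank 1, these Pearson values ranked 15, 17 and 486. After group means were subtracted the Pearson values were 0.910, 0.849 and 0.736 (ranks 17, 88 and 444). Without the 2 arrays farthest from the Foxp3 median, Th0 replicate 1 and Th2 replicate 2, they were 0.928, 0.876 and 0.894 over 8 arrays. The correlation was 0.587 for Ikzf4, 0.428 for Izumo1r, 0.132 for Nrp1, 0.021 for Il2ra, -0.009 for Ctla4 and -0.056 for Capg. In the same order the Pearson values without those 2 arrays were 0.694, 0.578, 0.123, 0.522, 0.050 and -0.156. Their Spearman values over the 10 arrays were 0.455, 0.673, 0.164, 0.200, -0.164 and -0.200. Other array measures moved with these genes. Foxp3 had a Pearson correlation of 0.853 with the platelet mean, 0.797 with the cell cycle mean and -0.678 with the T cell activation mean. Lrrc32 had 0.903 with the cell cycle mean. Cell cycle means were 7.60 to 8.02 on the Th0 arrays, 8.17 on Th2 replicate 1 and 7.56 on Th17 replicate 1, and 6.43 to 7.22 on the 5 arrays lowest in Foxp3, which were Th2 replicates 2 and 3 and Th17 replicates 2 to 4. Platelet means, given above with Lrrc32, were 3.57 to 5.13 on those 5 arrays and 5.11 to 6.78 on the others. The T cell activation mean went the other way on the 2 arrays lowest in Foxp3, at 8.78 and 8.42 against 7.45 to 8.09 elsewhere. The part of each of these measures in the shared pattern was not tested.

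**Figure D4:**
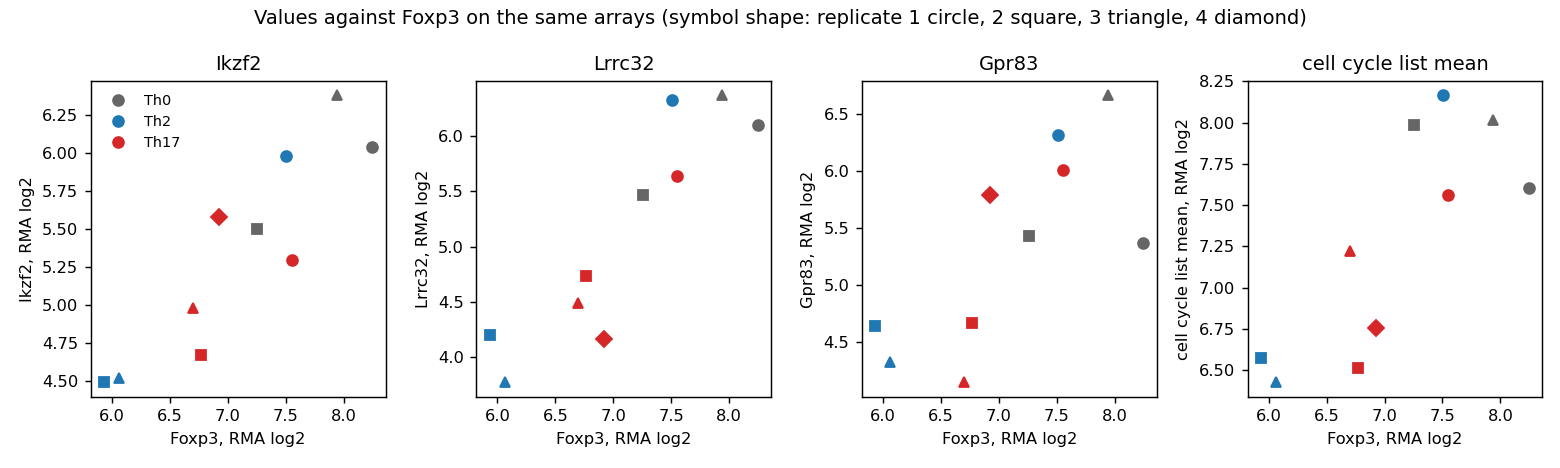
Ikzf2, Lrrc32, Gpr83 and the mean of 11 cell cycle genes against Foxp3 on the same 10 arrays (RMA log2 on both axes; grey Th0, blue Th2, red Th17; shape gives the replicate). In each panel Th2 replicates 2 and 3 lie at the lower left and Th2 replicate 1 among or near the Th0 arrays.

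Of 5885 other named genes with a mean of at least 5, those most like Foxp3 over the 10 arrays were Socs5, a suppressor of cytokine signalling (r = 0.956), Elob, an elongin subunit (0.944), Gmnn, the replication licensing inhibitor geminin (0.935), Atpif1, an inhibitor of mitochondrial ATP synthase (0.929), and Tti1 (0.924). After group means were subtracted they were Elob (0.967), the adaptor gene Gipc1 (0.962), the tetraspanin gene Cd81 (0.944), Socs5 (0.934) and the transporter gene Mfsd6 (0.924). Gmnn was at 7.31 to 7.67 on the Th0 arrays, at 7.53, 5.33 and 5.50 on Th2 replicates 1 to 3 and at 7.20, 6.05, 6.70 and 6.29 on Th17 replicates 1 to 4. Cd81 was at 8.48 to 9.21 on the Th0 arrays, at 9.35, 7.95 and 8.04 on the Th2 arrays and at 8.24, 7.36, 7.88 and 7.91 on the Th17 arrays.

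Of the other surface and secreted products of regulatory T cells (26 of 28 listed genes measured), 1 was called in Th17 against Th0 (0.104% of all genes), 0 in Th2 against Th0 (0.00%) and 2 in Th17 against Th2 (0.0766%). Nt5e (CD73, an enzyme that makes adenosine) rose 3.97-fold in Th17 cultures against Th0 and against Th2 (limma, adjusted p = 0.0381 and 0.0391). It was at 5.63 to 6.28 on the Th17 arrays, at 3.65 to 4.24 on the Th0 arrays and at 3.44 to 4.71 on the Th2 arrays. Itgae (CD103, an integrin chain) rose 5.15-fold against Th2 (limma, adjusted p = 0.0485). Against Th0 it was 4.22-fold higher without overlap, as 3.22% of all genes separated, but was not called (limma, adjusted p = 0.0804). It was at 5.37, 6.71, 6.70 and 5.42 on Th17 replicates 1 to 4 and at 3.95, 3.57 and 3.53 on the Th2 arrays. On Th0 replicates 1 to 3 it was at 4.41, 3.88 and 3.63. The 2 highest Th17 arrays were the basophil-rich ones, without which (and Th0 replicate 1) the difference from Th2 was 1.71 ± 0.20 (SE, limma adjusted p = 0.114). The part of those cells was not tested. These calls were near the threshold. Over 22 settings Nt5e was called in 8 against Th0 (differences 1.84 to 2.16) and in 7 against Th2 (1.12 to 2.37, lowest without the 3 arrays apart). Itgae was called in 8 against Th2 (1.71 to 2.59). They were lost, among other settings, without any single Th0 array. The median difference of the list was -0.16 in Th17 against Th0 and -0.10 in Th2 against Th0, and, with Nt5e among them, 4 were higher and 5 lower in Th17 against Th0 at an unadjusted p under 0.05 (2.50% and 2.67% of all genes). Tnfrsf18 (GITR, a costimulatory receptor that regulatory cells carry constitutively) was at 9.54, 10.02 and 9.75 on the Th0 arrays. It was at 9.59, 8.01 and 7.78 on the Th2 arrays, the same split of Th2 arrays as for Foxp3 (difference -1.31, limma adjusted p = 0.767). On Th17 replicates 1 to 4 it was at 9.11, 8.30, 8.61 and 8.24, all below the Th0 arrays, as for 4.35% of all genes. That difference from Th0 was -1.20 (limma, adjusted p = 0.719). Cd83, an activation marker, was 2.83-fold higher in Th2 than in Th0 cultures (limma, adjusted p = 0.767).

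None of 29 measured factors that bind or control the Foxp3 gene or act with its protein was called by limma. At an unadjusted p under 0.05, 2 were higher and 0 lower in Th17 against Th0 (5.17% of all genes in either direction), 3 higher and 0 lower in Th2 against Th0 (6.34%), and 4 higher and 4 lower in Th17 against Th2 (6.25%). Foxo1, a forkhead factor that supports Foxp3 expression, was at 7.98 to 8.38 on the Th17 arrays and at 7.26 to 7.52 on the Th0 arrays, a difference of 0.79 ± 0.14 (SE, limma adjusted p = 0.0838). It differed from Th2 by 0.63 (limma, adjusted p = 0.241). Bach2, a repressor of effector genes, differed by 0.97 in Th17 against Th0 (limma, adjusted p = 0.563). Rel, the NF-kappaB subunit c-Rel, differed by 0.89 and Irf4 by 1.10 in Th2 against Th0 (limma, adjusted p = 0.767 each), and Foxp1 by -0.63 in Th17 against Th2 (limma, adjusted p = 0.521).

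Of IL-2, its receptor chains and its signalling genes (11 of 13 listed measured), limma called none. An unadjusted p under 0.05 was reached by 2 higher and 0 lower in Th17 against Th0 (5.17% of all genes in either direction), 2 higher and 2 lower in Th2 against Th0 (6.34%), and 2 higher and 1 lower in Th17 against Th2 (6.25%). Il2, the cytokine that sustains regulatory T cells, was at 9.86, 7.71 and 5.24 on the Th0 arrays. It was at 8.97, 11.08 and 10.56 on the Th2 arrays and at 9.41 to 10.17 on the Th17 arrays, so Th0 replicate 1 overlapped the polarised cultures (limma, adjusted p = 0.767 for a difference of 2.60 in Th2 and 0.879 for 2.26 in Th17). Socs3, a feedback inhibitor of IL-6 signalling, was at 7.75 to 8.66 on the Th17 arrays and at 5.62 to 7.14 on the Th2 arrays (difference 2.01, limma adjusted p = 0.102), and it differed from Th0 by 0.94 (limma, adjusted p = 0.896). Pim1, a kinase induced by STAT signals, differed by 1.09 in Th2 against Th0 and by -0.79 in Th17 against Th2 (limma, adjusted p = 0.767 and 0.728).

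Of 10 TGF-beta receptor, activation and response genes, 1 was called in Th17 against Th0 (0.104% of all genes). None was called in Th2 against Th0 (0.00%) or in Th17 against Th2 (0.0766%). Pmepa1, which dampens Smad signals, was raised 2.21-fold in Th17 against Th0 (limma, adjusted p = 0.0381). That call held in 5 of 23 settings (differences 1.01 to 1.32) and was lost without any single Th0 or Th17 array. It was at 6.62 to 6.97 on the Th17 arrays and at 5.41 to 5.83 on the Th0 arrays. The median difference of the 10 was 0.94 in Th17 against Th0 (-0.02 over all genes), with 8 higher and 2 lower (53.2% of all genes were lower). Foxp3 differed by -0.83 there, and a link of these genes to Foxp3 was not tested. In Th2 against Th0 the median of the 10 was 0.30 (-0.01 over all genes), with no calls (Skil 0.68 and Pmepa1 0.36, limma adjusted p = 0.792 and 0.795). In Th17 against Th2, Pmepa1 differed by 0.79 and Smad7, another inhibitor of Smad signals, by 0.76 (limma, adjusted p = 0.186 and 0.686).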

How the data were processed

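Gene expression of 10 cultures (Th0, n = 3; Th2, n = 3; Th17, n = 4) was measured on 1 array each. The log2 values deposited by the authors came from RMA, run in Expression Console 1.3.0.187 according to the submitters' processing notes. RMA corrects background, normalizes by quantiles and summarises each probe set. It scales out a global shift in RNA content and understates differences between weakly expressed genes. The deposited arrays still differed in their medians (3.39 to 3.61) and interquartile ranges (1.95 to 2.41). Of 41345 probe sets, 23521 carried 1 gene symbol in the platform table, 1814 several and 16010 none. Where 1082 genes had several single-symbol probe sets, the one with the highest mean was kept, which gave 22180 genes. A probe set that Foxp3 shares with 2 other genes was not used. Entrez IDs of 23328 probe sets matched RefSeq (GRCm38.p6), and 0 symbols changed. No filter on low values was used.

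limma 3.58.1 (R 4.3.3; lmFit and eBayes, 7 residual degrees of freedom) estimated the 3 group means together from the 10 arrays, and p-values were two-sided and adjusted over all genes. Groups were taken from the sample titles. The Th2 sample titled replicate 3 has the number 4 in its description, and the title's number is used. Intervals are 95% intervals of the fit, and the number of arrays limits the precision. The procedure was tested on simulated data. The genes, lists and tests were chosen with earlier results of these data known, so no list is independent evidence. All 10 genes are named. From each further list and comparison, up to 4 called genes with the largest change are named, or, failing any call, up to 2 of the smallest p, and the 5 genes most correlated with Foxp3 leave out unnamed models, small RNAs, receptor segments and genes with a mean under 5. Markers used to describe arrays come from lists, and which of them are printed was chosen after their values were seen.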

Additional observations from a re-analysis of the deposited data

Results flagged for a closer look

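In the Th17 group of 4 arrays, 3 of the 47 gene or list values examined had an array far from the other 3, and chance flags about 1 in 20. Gipc1 was at 6.51 on Th17 replicate 1, against 5.99 on the nearest other Th17 array. The mean of the T cell identity genes was 8.68 on Th17 replicate 4, against 9.17 on the nearest. The mean of the myeloid markers was 4.04 on Th17 replicate 1, against 3.08 on the nearest. None of the 10 regulatory T cell genes had such an array in the Th17 group, and groups of 3 were not examined.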

How the results depend on the processing

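Under each alternative the count of the 10 genes called stayed at 0, except without Th2 replicate 1. There limma called 3 in Th2 against Th0, among 431 of all 22180 genes, and 1 in Th17 against Th2. Ranges over single left-out arrays were 0 to 3 and 0 to 1 in these comparisons, and 0 in Th17 against Th0. Over all genes, leaving out single arrays gave 2 to 36 calls in Th17 against Th0 (23 with all arrays), 0 to 431 in Th2 against Th0 (0) and 3 to 298 in Th17 against Th2 (17). Calls in Th17 against Th0 were 6 with array medians subtracted, 55 with T cell identity means subtracted, 60 with array weights, 46 without the 3 arrays apart on the first component and 3 without the 3 basophil-rich arrays. In Th2 against Th0 they were 1 with T cell identity means subtracted and 2 without the 3 arrays apart. In Th17 against Th2 they were 10 among genes with a mean of at least 5, 30 after quantile normalization again, 44 with T cell identity means subtracted, 330 with array weights and 6 without the 3 basophil-rich arrays. Nrp1, whose mean is under 5, was not tested in the filtered table. With T cell identity means subtracted the median of all genes moved to 0.16, 0.31 and -0.15 in the 3 comparisons.

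Replicate numbers are shared between groups. By the title number only 1 of 9 same-numbered pairs of arrays had deviations that correlated above 0.1 (-0.31 to 0.30). By that number 1 of 10 arrays correlated best with its own number. With the title number as a block, limma called 8 genes in Th17 against Th0 and 11 in Th17 against Th2. With the description number as a block it called 5 in each, and 3 of 10 arrays correlated best with their own number. By that number 2 of 8 same-numbered pairs correlated above 0.1 (-0.29 to 0.49). The pair at 0.49, Th2 replicate 3 and Th17 replicate 4, had the highest correlation between arrays of different groups. Both are numbered 4 in their descriptions, as no Th0 array is, and both are among the 3 arrays apart on the first component. What these 2 arrays share was not tested. Foxp3 differences under the title block were -0.81, -1.31 and 0.51 for Th17 against Th0, Th2 against Th0 and Th17 against Th2, and no blocked fit called any of the 10 genes.

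Leaving out single arrays gave Foxp3 differences of -1.11 to -0.61, -1.82 to -1.03 and 0.20 to 0.99 in the same order. Without the 3 arrays apart, signs turned in Th2 against Th0 for Ikzf2 (0.0072), Ikzf4 (0.31), Lrrc32 (0.35), Gpr83 (0.49) and Izumo1r (0.29), and in Th17 against Th2 for Foxp3 (-0.50), Ikzf2 (-0.9998), Ikzf4 (-0.21), Nrp1 (-0.46) and Gpr83 (-1.37), each resting on 1 Th2 array. Other sign changes were of differences that were small or uncalled, and their cause was not tested. With T cell identity means subtracted they were Il2ra in Th17 against Th0 (0.13), Ctla4 in Th2 against Th0 (0.18), and Ikzf2 (-0.010), Nrp1 (-0.10) and Gpr83 (-0.086) in Th17 against Th2. Without the 3 basophil-rich arrays they were Il2ra in Th17 against Th0 (0.15) and, in Th17 against Th2, Il2ra (0.15), Lrrc32 (0.13) and Nrp1 (-0.099). In Th17 against Th2, Lrrc32 also turned after quantile normalization again (0.030), with array medians subtracted (0.0040), with array weights (0.41) and under the title block (0.19). Under the title block Ikzf2 (-0.016), Nrp1 (-0.0070) and Gpr83 (-0.15) turned too, and under the description block Nrp1 (-0.039) and, in Th2 against Th0, Capg (-0.026). Single left-out arrays gave ranges across 0 for Il2ra (-0.25 to 0.13) and Ctla4 (-0.11 to 0.66) in Th17 against Th0, Ctla4 (-0.45 to 0.32) and Nrp1 (-0.11 to 0.31) in Th2 against Th0, and Ikzf2 (-0.12 to 0.63), Lrrc32 (-0.51 to 0.77), Nrp1 (-0.16 to 0.27) and Gpr83 (-0.32 to 0.67) in Th17 against Th2. Without Th2 replicate 1, Foxp3, Ikzf2 and Lrrc32 in Th2 against Th0 and Ikzf4 in Th17 against Th2 (1.21) passed the threshold.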
